A study of Mus musculus with 4 samples.

Results

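Monocytes and interstitial macrophages are the blood-derived phagocytes of the lung wall and its capillaries. They were followed here through 30 genes out of 30702 measured on whole-lung arrays. The 30 were named as a group by cell biology, with earlier results of these data known. All 30 had a probe set annotated to that gene alone, and each had only that 1 probe set. They were divided by textbook role into 6 genes of classical monocytes, 5 of patrolling monocytes, 9 shared by mononuclear phagocytes and 10 of tissue macrophages. The samples were whole lungs of adult, age-matched mice: 2 arrays from wild-type (WT) mice of the strain labelled C57/BL6 and 2 from transgenic mice labelled SCD Tg, a model of sickle cell disease whose line is not given in the sources used here. No treatment is given for either group, and the labels do not state that the arrays come from separate animals, so p-values measure only the spread between these arrays. Each difference is the mean log2 value in SCD less that in WT, given ± its moderated standard error (SE) from limma, with p adjusted over all 30702 genes; n = 2 arrays per group throughout.

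Classical monocytes carry high Ly6C, leave the bone marrow through the chemokine receptor Ccr2 and enter tissues where inflammation is under way. Patrolling monocytes, which need the transcription factor Nr4a1, carry little Ly6C and crawl along the capillary wall. Patrolling monocytes depend on the growth factor Csf1 and its receptor Csf1r, as do the resident macrophages of the interstitium. Some of these macrophages lie by vessels and carry Lyve1 and Folr2. Resident macrophages clear dying cells through the receptors Mertk and Axl. In sickle cell disease the lung capillaries are a site of red cell trapping and breakdown, and monocytes and macrophages take up red cells and heme.

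The arrays were those of lung: on every array all 6 measured genes of the lung tissue list lay above the median of the intron control probe sets, a measure of background that averaged 6.48 on the WT arrays, and Xist was at 16.7 or more on all 4 arrays while the Y-linked Kdm5d, Eif2s3y and Uty stayed at 4.99 or less. Between groups, the exon control probe sets were 0.20 higher and the intron controls 0.18 lower on the SCD arrays, and their part in the differences below was not tested. Over all genes, 949 (3.09%) passed an adjusted p of 0.05, 754 of them (2.46% of genes) higher and 195 (0.635%) lower in SCD, so that 79.5% of calls were higher. That share was 64.4% with quantile normalization repeated, 62.3% over every transcript cluster and 47.7% with the exon control shift taken off the SCD arrays, which lowers every difference, and so every list median below, by 0.20 (over all genes the median went from 0.00 to -0.19). Leaving out SCD replicate 1 or SCD replicate 2 leaves a lone SCD array, and the spread within groups then comes from the WT arrays alone. Each call below thus rests on the spread of both SCD arrays. The differences changed less: Ly6c2, the largest called of the 30 genes, stood at 1.53 and 1.57. Apoe, the smallest called, stood at 0.58 and 0.71.

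Of the 30 genes, 6 rose in SCD lung, 0 fell and 24 did not pass; at an unadjusted p under 0.05 the limma fit had 12 higher and 2 lower, beside 3262 and 1864 of all 30702 genes. The 6 were Ly6c2 and Ly6c1 among the classical monocyte genes and Ms4a7, Lyve1, Msr1 and Apoe among the tissue macrophage genes. None of the patrolling monocyte genes and none of the shared genes passed. Beside these 6 of 30, 2.46% of all genes were called higher. The median difference of the 30 genes was 0.22, beside 0.00 over all genes, and single differences ran from -0.34 (Mertk) to 1.55 (Ly6c2). Both SCD arrays lay above both WT arrays for 15 of the 30 genes and below them for 6, beside 25.3% and 22.5% of all genes. In a bulk tissue, fewer or more cells of a type cannot be told apart from less or more RNA per cell.

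**Figure D1:**
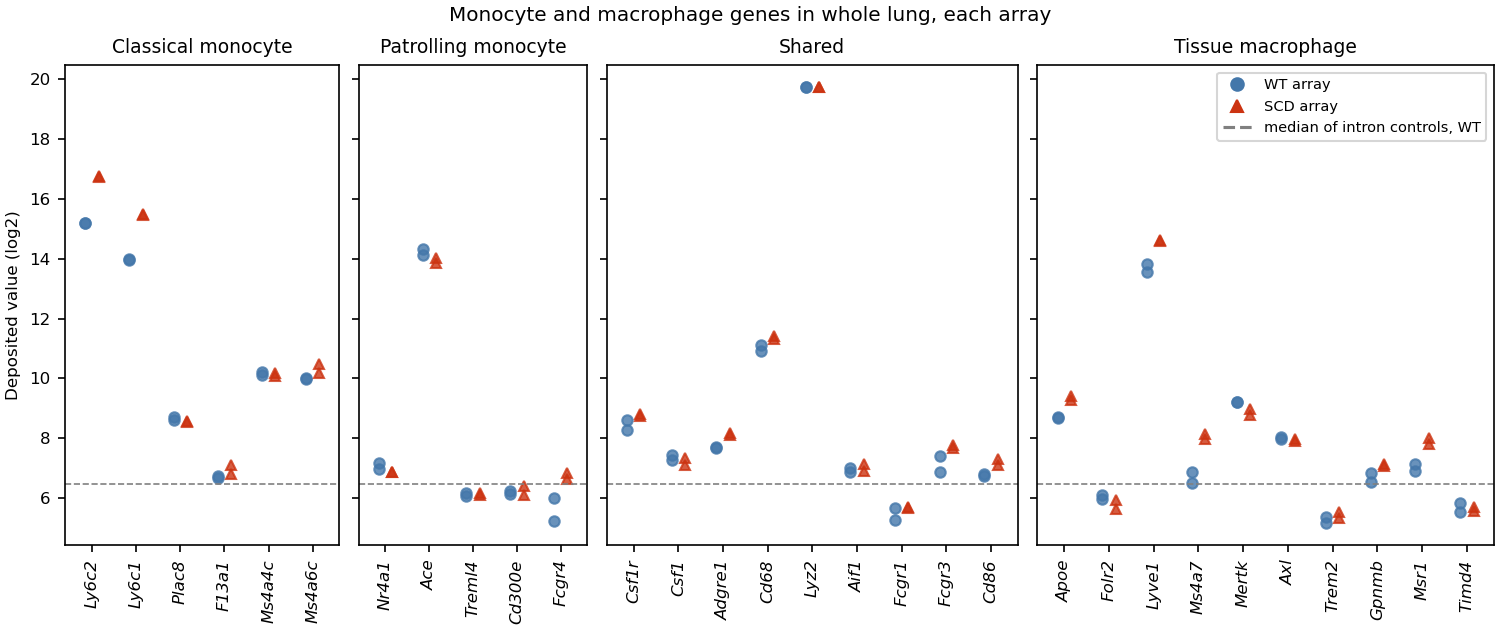
Deposited log2 value (vertical axis) of each of the 30 genes on each array, in panels by role; blue circles are the 2 WT arrays, red triangles the 2 SCD arrays, and the dashed line is the mean of the WT arrays' intron control medians (6.48). Ly6c2 and Ly6c1 are bright with the groups far apart, Lyz2 sits at the same value on all arrays, and 7 genes have a WT mean below the dashed line; levels of different genes are not comparable with each other.

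Ly6c2 and Ly6c1 encode the Ly6C surface proteins that define classical monocytes in blood. Ly6c2 read 15.19 on each WT array, and its SCD values were 16.76 and 16.73. The groups were thus separated by many times the spread within each: the SD was 0.023 in SCD, and the difference was 1.55 ± 0.05 (2.93-fold higher; limma adjusted p = 0.0023). Ly6c1 read 13.98 and 13.94 in WT and 15.51 and 15.47 in SCD, a difference of 1.53 ± 0.06 (2.88-fold; limma adjusted p = 0.0028). The 95% intervals of the pair, 1.42 to 1.69 and 1.37 to 1.68, overlapped almost wholly. These were the 2 members called at an adjusted p under 0.01. Ly6c1 is also known as a gene of lung capillary endothelium, so it marks monocytes only in part.

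The genes of this pair are close copies that neighbour each other on chromosome 15, and the array cannot show how far RNA of either gene was read by the probe set of the other. Their promoters are shown because the pair moved together. Each is the 250 bases before the outermost RefSeq start in GRCm38.p6, both on the minus strand: chr15:75048838-75049087 for Ly6c1 and chr15:75111972-75112221 for Ly6c2. Capitals mark the longest run that the sequences share, 20 bases long.
Ly6c1: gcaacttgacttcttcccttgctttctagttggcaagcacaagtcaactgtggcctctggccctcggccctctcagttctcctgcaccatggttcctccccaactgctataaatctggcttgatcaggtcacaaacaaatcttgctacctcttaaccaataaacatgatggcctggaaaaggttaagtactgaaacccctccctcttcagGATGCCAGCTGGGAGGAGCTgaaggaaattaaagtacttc
Ly6c2: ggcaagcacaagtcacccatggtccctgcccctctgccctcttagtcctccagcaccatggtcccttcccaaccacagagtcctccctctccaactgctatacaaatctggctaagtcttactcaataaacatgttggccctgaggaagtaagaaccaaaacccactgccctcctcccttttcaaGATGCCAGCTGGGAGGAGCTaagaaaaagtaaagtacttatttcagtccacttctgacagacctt
A global alignment paired 210 positions of these windows, of which 171 (81.4%) were identical. The shared run lies 21 to 40 bases before the start of Ly6c1 and 46 to 65 bases before that of Ly6c2.

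The RefSeq promoter windows of 300 bases (250 before and 50 after each start) were also searched on both strands for the letters of 4 motifs known from myeloid genes; 25 of the 30 genes had a window. The letters GAGGAAGT, bound by the myeloid factor PU.1, were found for 4 genes (Ly6c2, Ly6c1, F13a1 and Fcgr4), beside 3.69% of the 27025 genes with a window. In Ly6c1 they were found in 1 of its 2 windows and not in the sequence above. The interferon-stimulated response element was found for Aif1 and Fcgr4 (3.99% of all genes) and the STAT letters TTCNNNGAA for Cd300e and Fcgr1 (9.55%). The AP-1 letters TGANTCA were found for 5 genes, Cd68, Folr2, Gpnmb, Ms4a7 and Trem2 (8.97%). The search did not let different motifs exclude each other where they overlap. A match is a description of the letters and not a bound site.

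The other 4 classical monocyte genes did not follow the Ly6c pair past the test. Ms4a6c, of a family of membrane-spanning proteins, read 10.01 and 9.98 in WT and 10.47 and 10.16 in SCD (0.32 ± 0.13; limma adjusted p = 0.307). F13a1, the A subunit of coagulation factor XIII, made by monocytes and macrophages, read 6.74 and 6.66 in WT and 6.78 and 7.09 in SCD (0.23 ± 0.14). Both SCD arrays were above both WT arrays for these genes, but by less than the gap between the SCD arrays themselves. Plac8, a small protein abundant in classical monocytes, lay at 8.60 and 8.69 in WT and 8.56 and 8.53 in SCD (-0.10 ± 0.10), and Ms4a4c at 10.23 and 10.11 against 10.06 and 10.18 (-0.05 ± 0.10). The upper ends of their 95% intervals, 0.14 for Plac8 and 0.20 for Ms4a4c, lie far below the differences of Ly6c2 and Ly6c1. The median difference of the 6 classical genes was 0.28, or 0.081 with the exon control shift removed.

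No patrolling monocyte gene passed, and the median difference of the 5 was 0.02, or -0.17 with the exon control shift removed. Nr4a1, the nuclear receptor these cells need, read 7.15 and 6.98 in WT and 6.87 and 6.85 in SCD (-0.20 ± 0.11; limma adjusted p = 0.462). Ace, the angiotensin-converting enzyme, which lung endothelium also makes in quantity, read 14.14 and 14.34 in WT and 13.85 and 14.02 in SCD (-0.31 ± 0.10; limma adjusted p = 0.237). For both genes the SCD arrays were below the WT arrays, without passing. Treml4 (0.02 ± 0.11), a receptor for dying cells, and Cd300e (0.06 ± 0.14), an activating receptor, had WT means under the intron control median, and their groups overlapped; both differences were below 0 with the exon control shift removed. Fcgr4, the IgG receptor of patrolling monocytes, was the exception in size: it read 5.99 and 5.21 in WT and 6.63 and 6.82 in SCD, a difference of 1.12 ± 0.27 (limma adjusted p = 0.126). Its WT arrays differed from each other by more than the gap to the lower SCD array, and without WT replicate 1 the difference was 1.51 with a limma adjusted p of 0.0449.

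Among the 9 shared genes, 7 differences were above 0, 1 was below 0 and none passed, beside 15443 above 0 of all 30702 genes. The median of the 9 was 0.35 (0.21 with repeated quantile normalization and 0.15 with the exon control shift removed). The general leukocyte gene Ptprc differed by 0.33 ± 0.08 (limma adjusted p = 0.118). Adgre1, which encodes the macrophage antigen F4/80, came nearest to the threshold: it read 7.66 and 7.71 in WT and 8.16 and 8.11 in SCD (0.46 ± 0.10; limma adjusted p = 0.097). Cd68, a lysosomal glycoprotein of macrophages, read 10.91 and 11.10 in WT and 11.31 and 11.40 in SCD (0.35 ± 0.10). Cd86, a costimulatory ligand for T cells, read 6.73 and 6.79 against 7.31 and 7.09 (0.44 ± 0.12), and the IgG receptor gene Fcgr3 7.40 and 6.86 against 7.76 and 7.67 (0.58 ± 0.20). For these 4 genes and for Csf1r both SCD arrays were above both WT arrays. Csf1r, the receptor for Csf1, read 8.28 and 8.59 in WT and 8.75 and 8.82 in SCD (0.35 ± 0.14, limma adjusted p = 0.304). Its ligand Csf1 read 7.26 and 7.45 against 7.11 and 7.32 (-0.14 ± 0.13). The calcium-binding protein gene Aif1 (0.08 ± 0.135) and the high-affinity IgG receptor gene Fcgr1 (0.20 ± 0.17), the latter below the intron control median on all arrays, had overlapping groups, and that of Aif1 was below 0 with the exon control shift removed. Lyz2, lysozyme, held the same value of 19.75 on all 4 arrays, and so gives no direction; 192 transcript clusters in all were identical across the arrays.

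**Figure D2:**
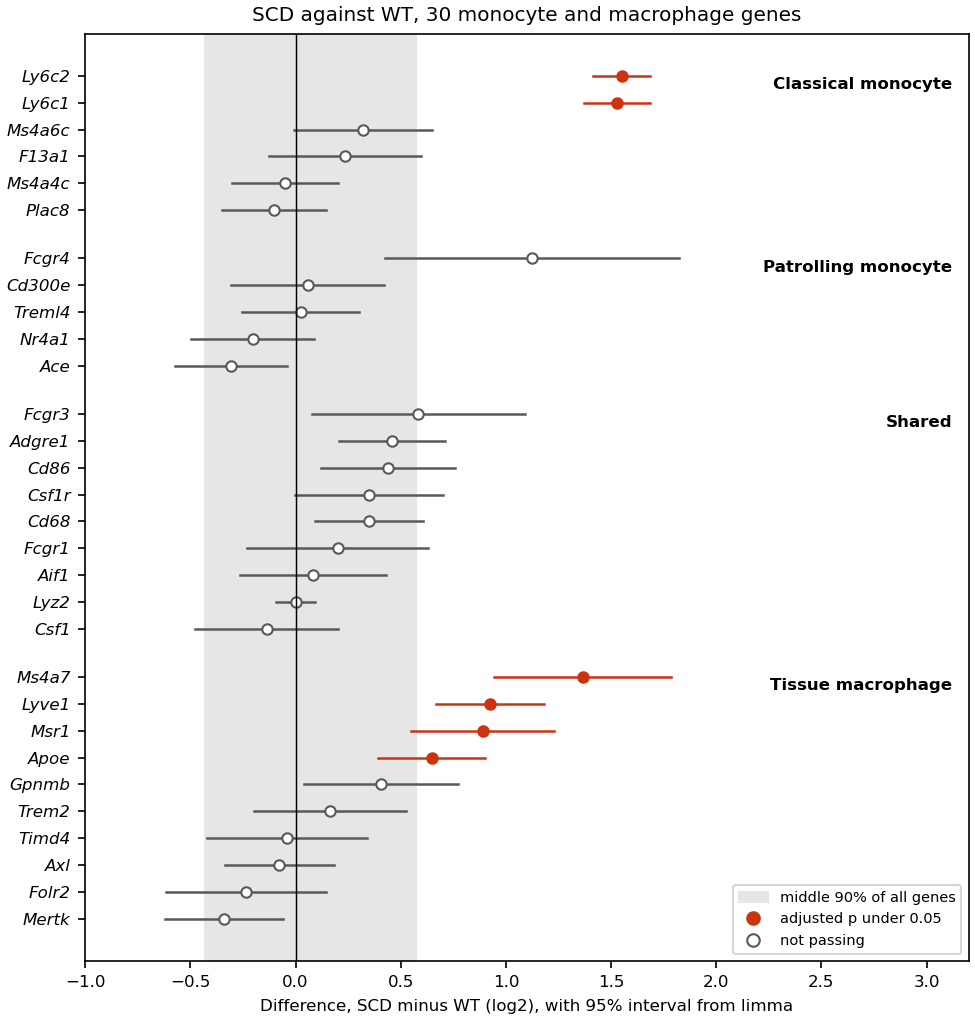
Difference between SCD and WT (horizontal axis, log2) of each of the 30 genes with its 95% interval from limma, grouped by role; filled red points passed an adjusted p of 0.05, open points did not, and the grey band holds the middle 90% of all genes (-0.43 to 0.57). The 6 filled points are Ly6c2, Ly6c1, Ms4a7, Lyve1, Msr1 and Apoe, and Fcgr4 is the open point with the largest difference.

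Tissue macrophage genes split: 4 of 10 rose and 6 did not pass, with a median difference of 0.28, or 0.089 with the exon control shift removed. Ms4a7, a membrane protein of interstitial and other macrophages derived from monocytes, read 6.49 and 6.87 in WT and 8.14 and 7.95 in SCD (1.37 ± 0.16; 2.58-fold; limma adjusted p = 0.0223). The lower SCD array was above the higher WT array by more than the spread within either group. Msr1, the class A scavenger receptor, read 6.90 and 7.12 in WT and 7.80 and 7.998 in SCD (0.89 ± 0.13; limma adjusted p = 0.041). Apoe, the apolipoprotein that macrophages secrete with exported cholesterol, read 8.66 and 8.71 in WT and 9.40 and 9.27 in SCD (0.65 ± 0.10; limma adjusted p = 0.044). The calls of Msr1 and Apoe were the least firm: with the exon control shift removed, limma gave adjusted p = 0.0662 for Msr1 (0.69) and 0.0859 for Apoe (0.45). Without WT replicate 1, limma gave adjusted p = 0.0591 for Ms4a7, 0.118 for Msr1 and 0.122 for Apoe, and without WT replicate 2, 0.0645 for Msr1 and 0.0867 for Apoe.

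Lyve1, a hyaluronan receptor of perivascular macrophages and also of lymphatic endothelium, read 13.56 and 13.81 in WT and 14.59 and 14.62 in SCD (0.92 ± 0.10; 1.90-fold; limma adjusted p = 0.016). Folr2, a folate receptor of the same macrophages, did not follow it: it read 6.09 and 5.96 in WT and 5.64 and 5.94 in SCD (-0.24 ± 0.15), below the intron control median on every array. None of 6 measured lymphatic endothelial markers passed, and 2 of them, Prox1 and Reln, were below the intron control median on every array. The summed level of the 6, as log2 of the sum of linear values, was 12.24 on each WT array and 12.39 and 12.40 in SCD. Pdpn, the brightest of the 6, made up most of that sum, at 11.84 and 11.83 in WT and 12.04 on each SCD array. It differed by 0.20 ± 0.07, and Mmrn1 by 0.34 ± 0.15. Whole-lung arrays do not show which cells gave the Lyve1 signal, and the part of these 6 markers in the difference of Lyve1 was not tested.

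The receptors that bind and engulf dying cells did not pass. Mertk read 9.20 and 9.19 in WT and 8.76 and 8.96 in SCD (-0.34 ± 0.11; limma adjusted p = 0.215), and Axl 8.05 and 7.97 against 7.89 and 7.97 (-0.08 ± 0.10). Timd4, a phosphatidylserine receptor of long-lived resident macrophages, lay between 5.52 and 5.83 on all arrays (-0.04 ± 0.15), and Trem2, a lipid receptor, between 5.16 and 5.53 (0.16 ± 0.14); both were below the intron control median, and the difference of Trem2 was below 0 with the exon control shift removed. Gpnmb, a glycoprotein of lipid-laden macrophages, read 6.53 and 6.84 in WT and 7.13 and 7.05 in SCD (0.41 ± 0.14; limma adjusted p = 0.254).

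Relatives of the members, chosen after their values were seen, show how far neighbours moved with them. From Ly6e to Gpihbp1 in RefSeq order, 11 of 15 protein-coding genes were measured: Ly6c1 and Ly6c2 rose, Gpihbp1, the lipase anchor of capillaries, fell by 1.56 ± 0.09, and 8 did not pass, Ly6a2 (0.78 ± 0.15; limma adjusted p = 0.079) and Ly6f (0.51 ± 0.12) among them. The Ms4a family has 20 measured genes: beside Ms4a7, Ms4a8a (1.02 ± 0.12), Ms4a6b (0.64 ± 0.10) and Ms4a4d (0.62 ± 0.08) rose and 16 did not pass, Ms4a6c and Ms4a4c included. Of the 4 Fc gamma receptor genes, the inhibitory receptor gene Fcgr2b rose by 0.74 ± 0.12 (limma adjusted p = 0.047), and the activating receptor genes Fcgr1, Fcgr3 and Fcgr4 did not pass. With the exon control shift removed, limma gave adjusted p = 0.082 for Fcgr2b, 0.0871 for Ms4a6b and 0.0703 for Ms4a4d. Without WT replicate 1 it gave 0.109 for Fcgr2b, 0.102 for Ms4a6b, 0.086 for Ms4a4d and 0.0626 for Ms4a8a, and without WT replicate 2, 0.0583 for Fcgr2b, 0.0954 for Ms4a6b and 0.0592 for Ms4a4d. Over every transcript cluster Ms4a8a had a limma adjusted p of 0.0571.

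**Figure D3:**
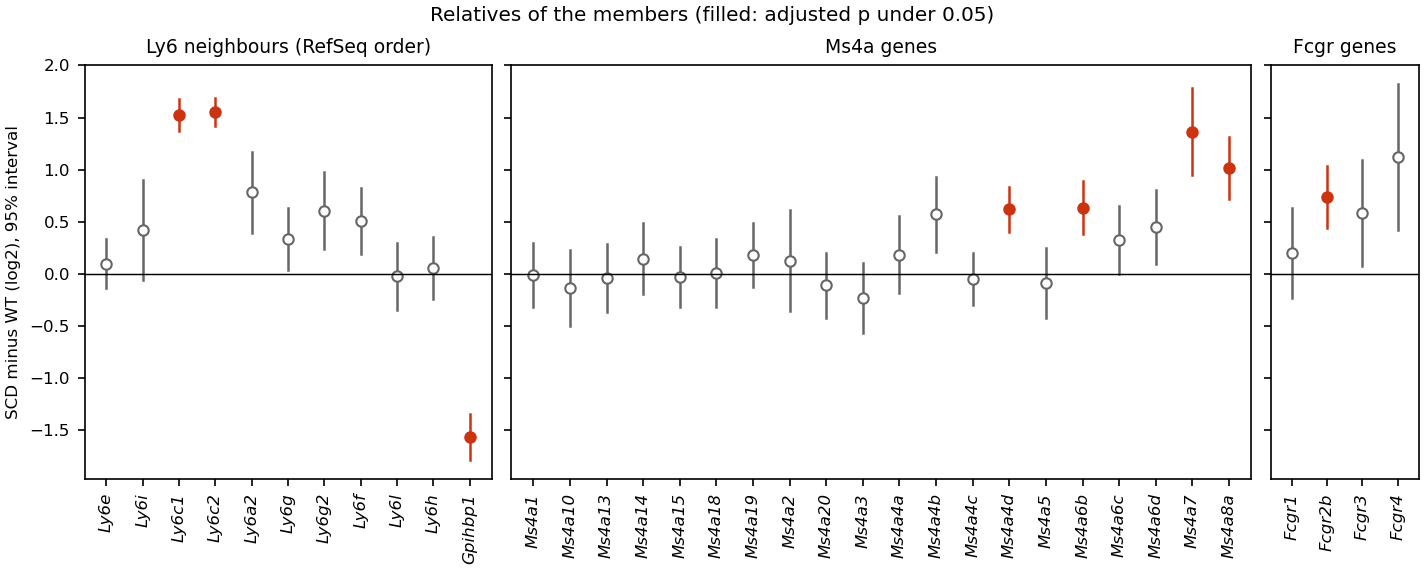
Difference between SCD and WT (vertical axis, log2, with 95% interval) of measured neighbours of the Ly6c genes in RefSeq order, of all measured Ms4a genes and of the Fc gamma receptor genes; filled points passed an adjusted p of 0.05. Ly6c1 and Ly6c2 stand at about the same height between neighbours that did not pass, and Gpihbp1 at the end of the row is lower by 1.56.

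Genes that recruit monocytes and direct their fate moved upward where they passed. Of 32 listed genes 27 were measured, of which 4 rose, 0 fell and 23 did not pass. Their median was 0.29, and 25 differences were above 0, beside 15443 of all 30702 genes. Some of these 25 were smaller than the exon control shift of 0.20. Ccr2, the receptor by which classical monocytes leave the marrow, read 8.67 and 8.75 in WT and 9.76 and 9.88 in SCD (1.11 ± 0.10; 2.15-fold; limma adjusted p = 0.0101). Ligands of the monocyte chemokine group rose furthest: Ccl8 from 6.17 and 6.33 to 9.18 and 8.94 (2.81 ± 0.13) and Ccl12, a mouse ligand of Ccr2, from 6.26 and 6.16 to 9.27 and 8.61 (2.73 ± 0.23). Their WT values were below the intron control median, so the size of these increases may be understated. Ccl2, the classic ligand of Ccr2, read 7.004 and 7.38 against 8.03 and 7.84 (0.74 ± 0.16; limma adjusted p = 0.102), and the granulocyte growth factor receptor gene Csf3r rose by 1.10 ± 0.10. The patrolling monocyte receptor gene Cx3cr1 (0.43 ± 0.20), the Csf1r ligand gene Il34 (0.24 ± 0.11) and the myeloid transcription factor gene Spi1 (0.40 ± 0.25) did not pass.

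Further monocyte genes outside the 30 gave 3 increases and 1 decrease among 19 measured, with a median of 0.35. Clec4e, a receptor for damaged cells, rose by 1.40 ± 0.14, Pglyrp1, a peptidoglycan-binding protein, by 1.15 ± 0.17 and Gsr, glutathione reductase, by 0.85 ± 0.13. Clec4e read 5.36 and 5.32 in WT, below the intron control median. Cd36, a scavenger receptor also made by capillary endothelium, fell by 0.66 ± 0.05 from 16.41 and 16.40 to 15.72 and 15.77. With the exon control shift removed, limma gave adjusted p = 0.055 for Pglyrp1 and 0.0742 for Gsr. The 24 further macrophage genes held 3 that rose, 0 that fell and 21 that did not pass (median 0.23). Tmem176a rose by 0.96 ± 0.08, Pf4, shared by platelets and some macrophages, by 1.13 ± 0.15 and Gas6, the ligand of Axl and Mertk, by 0.56 ± 0.075, although Gas6 lost its call with repeated quantile normalization (0.38; limma adjusted p = 0.0784), with cyclic loess (0.43; adjusted p = 0.0638) and once the exon control shift was removed (0.36; adjusted p = 0.0761). Tmem176b (0.83 ± 0.14; limma adjusted p = 0.0511) lay at the threshold: it passed with array weights (0.04), cyclic loess (0.0457), the dimmest 25% (0.0428) or 50% (0.0344) of genes left out, and without WT replicate 2 (0.028). The complement gene C1qa (0.44 ± 0.26), the mannose receptor gene Mrc1 (0.37 ± 0.11) and the haptoglobin receptor gene Cd163 (-0.45 ± 0.12), an entry point for hemoglobin, did not pass. C1qa and Cd163 were below the intron control median on every array. Without WT replicate 1, limma gave adjusted p = 0.0565 for Ccl12, 0.0541 for Csf3r, 0.0679 for Clec4e, 0.0669 for Pglyrp1, 0.0788 for Gsr, 0.0973 for Pf4 and 0.0809 for Gas6. Without WT replicate 2 it gave 0.0583 for Clec4e, 0.0839 for Pglyrp1, 0.0588 for Pf4 and 0.061 for Gas6, and Cd36 had 0.0568 with no intensity trend.

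Markers of other cells moved beside these genes. Of 13 neutrophil markers 7 rose, 0 fell and 6 (Ly6g, Mmp9, Ngp, Camp, Elane and Mpo) did not pass, with a median of 1.10. S100a8 rose by 2.62 ± 0.16, S100a9 by 2.51 ± 0.11 and Ltf by 1.67 ± 0.11. The summed level of the list was 16.07 and 16.47 in WT and 18.75 and 18.91 in SCD. S100a8 and S100a9 made up most of that sum. Csf3r, Clec4e and Pglyrp1 are genes of neutrophils as well. Of 12 blood endothelial markers 4 fell and 1 rose, with a median of -0.31: Aplnr fell by 3.31 ± 0.21, Tek by 1.94 ± 0.08 and Gpihbp1 by 1.56 ± 0.09, Car4 rose by 1.18 ± 0.09, and the summed level was 16.25 and 16.37 in WT and 15.93 and 16.00 in SCD. Named after their values were seen, the pan-endothelial genes Pecam1 (0.24 ± 0.10) and Cldn5 (0.65 ± 0.16) did not pass, and Cdh5 fell by 0.47 ± 0.08 (limma adjusted p = 0.0491; 0.0837 with equal array medians and 0.0611 without WT replicate 2). Beside Ly6c1, Ace and Cd36, which endothelium shares, these values were measured only, and their part in those differences was not tested.

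Alveolar macrophage markers, which separate the macrophages of the airspace from those of the interstitium, went both ways, with 2 higher and 3 lower of 11 measured. Fabp1 fell by 1.96 ± 0.12 and Marco by 1.48 ± 0.10, while Car4, shared with endothelium, rose by 1.18 ± 0.09. Also called, and named after their values were seen, were Plet1 (1.03 ± 0.14) and Fabp4 (-1.22 ± 0.10). Marco read 5.37 and 5.39 in SCD, below the intron control median. Of 10 dendritic cell markers 3 rose, 0 fell and 7 did not pass, with a median of 0.19: the chemokine gene Ccl17 by 2.13 ± 0.18 and the class II genes H2-Eb1 by 1.21 ± 0.14 and H2-Ab1 by 0.96 ± 0.11. H2-Eb1 had a limma adjusted p of 0.0628 without WT replicate 1. Named after their values were seen, Siglech (-0.61 ± 0.14; limma adjusted p = 0.113) and Clec9a (-0.50 ± 0.12; limma adjusted p = 0.122, and 0.0481 with cyclic loess), markers of dendritic cell subsets, had both SCD arrays below both WT arrays and did not pass. None of 5 general leukocyte genes passed, although both SCD arrays were above both WT arrays for all 5, with Cd53 at 0.63 ± 0.12 (limma adjusted p = 0.074, and 0.0487 without the dimmest 50% of genes) and Itgb2 at 0.41 ± 0.10. The differences of the 6 called members, from 0.65 (Apoe) to 1.55 (Ly6c2), were all larger than those of these 5 genes, Apoe only slightly. That of Fcgr4 (1.12), which did not pass, was larger as well. These comparisons were not tested.

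**Figure D4:**
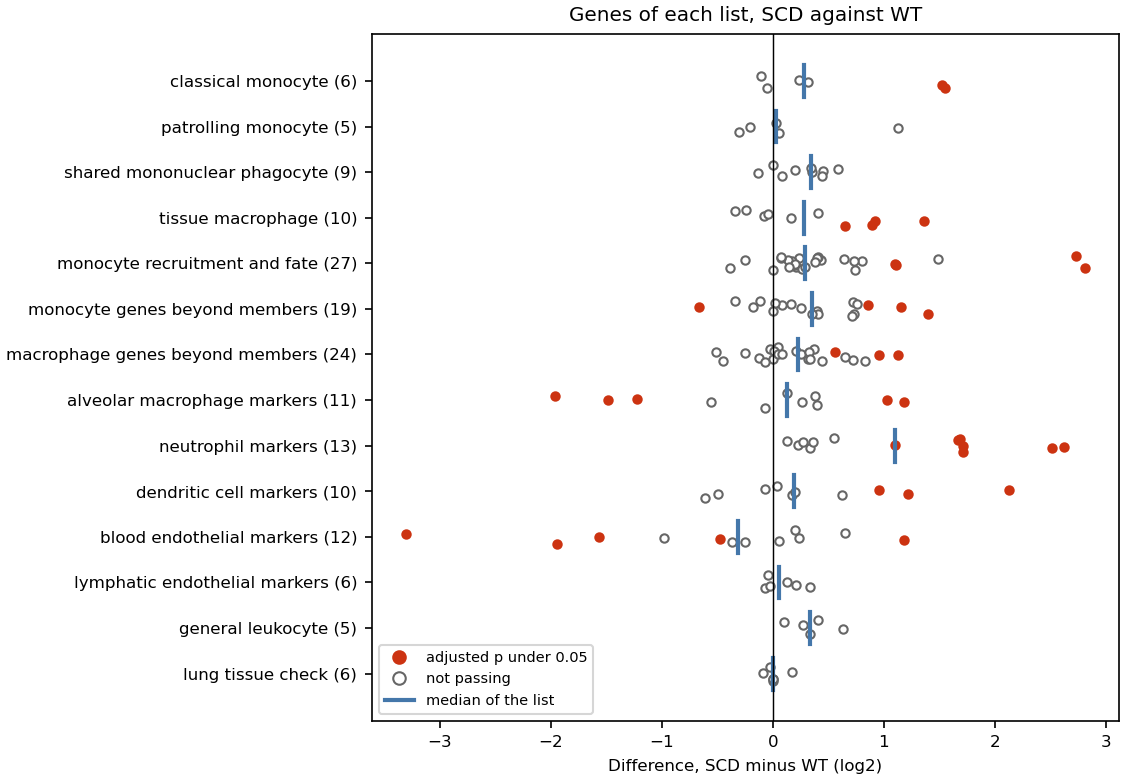
Difference between SCD and WT (horizontal axis, log2) of every measured gene of the member groups and of the other lists, with the number measured in brackets; filled red points passed an adjusted p of 0.05, open points did not, and the blue bar is each list's median. The classical and tissue macrophage rows hold the 6 called members, the patrolling and shared rows hold none, and the neutrophil row has its median at 1.10; vertical scatter within a row has no meaning.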

How the data were processed

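Whole-lung RNA of 2 WT and 2 SCD samples was measured on Affymetrix arrays with biotin label from a 3' IVT kit, per the labels' protocols. The deposited log2 values were used as given; Affymetrix Expression Console, Partek and RMA are named in the submitters' processing notes, without versions or order, and the log2 scale was read from the values (1.72 to 19.93). Of 72688 probe sets, 65956 are transcript clusters; 31258 had 1 gene in the platform annotation, with symbols updated through RefSeq (GRCm38.p6), 1492 had several and 33206 had no name. The brightest probe set by mean over the arrays stood for each of 30702 genes, all tested without a filter. Groups came from the sample titles. SCD was set against WT with limma 3.58.1 in R 4.3.3 (lmFit, eBayes with an intensity trend, group only), with two-sided p-values and Benjamini-Hochberg adjustment over all genes, threshold 0.05. The number of arrays limits the precision.

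The members and lists were chosen with earlier results of these data known. All members are named; of the other lists, named genes are those with the smallest p plus preset genes, and some that the rule names are not printed. In 5 simulations over 30702 genes, variances were drawn from the fit and 200 genes were shifted by 1 or 2 log2 units. Of genes shifted by 1 unit 16.6% were recovered, and of those shifted by 2 units 89.4%, with 6.6 false calls on average. Recovery depends on how many genes change, and 949 were called in the data. These shares therefore need not hold for the data. Alternatives covered the variance model, array weights, filters on dim genes, probe set choice, normalization, thresholds, the replicate block and each array left out.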

Additional observations from a re-analysis of the deposited data

How the results depend on the processing

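The number of arrays is the main limit, together with dim probe sets: 7 of the 30 genes had a WT mean below the intron control median. With 1 array left out, its group's lone array is assumed to vary like the other group. Then limma called 0 to 786 genes in all (949 with every array), 0 to 4 of the 30 genes (6), and 0 to 10 higher (10) and 0 to 1 lower (1) among the recruitment, monocyte and macrophage lists. At an adjusted p of 0.01 these became 286 genes, 2 of the 30 and 3 higher in the lists; at 0.1 they became 1752 genes, and 17 higher and 2 lower in the lists. Over every transcript cluster, where more features are adjusted for, 3 of the 30 (Ms4a7, Msr1 and Apoe being lost) and 6 higher in the lists were called, beside 603 higher of 65956 clusters. The lists had 0 lower calls without the intensity trend and 2 without the dimmest 50% of genes, with quantile normalization repeated or with the exon control shift removed.

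Removing the exon control shift left 12 of the 30 genes with both SCD arrays above, beside 9.79% of all genes, and 11 (6 as deposited) with both below, beside 54.3% of all genes. It moved the medians to 0.081 (classical), -0.17 (patrolling), 0.15 (shared) and 0.089 (tissue macrophage). Repeated quantile normalization gave 0.20 (classical) and 0.21 (shared), and cyclic loess 0.22 and 0.23. Removing the exon control shift also turned the sign of Treml4 (-0.17), Cd300e (-0.14), Aif1 (-0.11) and Trem2 (-0.032), none called. Leaving out 1 array turned other small differences, which then ranged from -0.11 to 0.011 for Ms4a4c, -0.013 to 0.063 for Treml4, -0.090 to 0.20 for Cd300e, -0.042 to 0.21 for Aif1, -0.0045 to 0.40 for Fcgr1 and -0.19 to 0.11 for Timd4. The cause of these changes was not tested. Of 1226 values of 77 single genes, 1062 kept direction and side of the threshold, 140 lost the call, 11 gained it and 13 changed sign.

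Deviations of same-numbered samples did not correlate (r = -0.0022 across genes), so the numbers were not taken to pair the samples. With the replicate block, limma called 968 genes and 5 of the 30. Of the genes named, Apoe (adjusted p = 0.069), Fcgr2b (0.0631) and Ms4a6b (0.0714) lost their calls under the block, and Cd53 (0.0407) and Tmem176b (0.0439) gained one.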
